A study of Arabidopsis thaliana with 8 samples.

Results

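Roots of iron-starved fit plants were set against roots of iron-starved WT plants of Arabidopsis thaliana. The comparison rests on 4 of the 8 arrays in the series, chosen by title alone: 2 of fit and 2 of WT, all from root tissue of plants kept without added iron. All plants were raised for 14 days on Gamborg's B5 medium and then moved for 3 days to agar plates of a basal medium. The basal medium lists no iron, and the iron-deficient plates of both genotypes held 300 µM ferrozine, a chelator of ferrous iron, while the iron-sufficient plates of the other 4 arrays (2 of WT and 2 of fit) held 50 µM Fe(III)-EDTA. No label names the fit allele, the accession of the plants or how many plants stand behind an array. The labels call the replicates biological, and the p-values measure the spread between these arrays.

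FIT is a basic helix-loop-helix (bHLH) transcription factor that roots need to take up iron. When iron is short it pairs with bHLH factors of subgroup Ib in the root epidermis and turns on the reduction and import of iron and the release of coumarins, phenolic compounds that bring ferric iron into solution. The Ib factors and the small IRON MAN peptides are known to respond to iron shortage also where FIT is missing. FIT itself, the ferric reductase FRO2 and the importer IRT1 were named by no probe set on their own, so the mutation was not checked by the signal of its gene.

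Values are log2 signal intensities, 1 per probe set and array, on 22746 probe sets. A listed gene counts as measured where a probe set names it alone. For the other listed genes, whether any of the 8730 unnamed probe sets reads them was not examined. A difference of 1 is a factor of 2 in signal. Differences are given as fit minus WT, with the standard error (SE) of a limma fit to all 8 arrays. A probe set was called at a limma p-value, adjusted by Benjamini-Hochberg over all 22746, under 0.05. Where 2 values follow a genotype, the first is replicate 1 and the second replicate 2. In whole roots, fewer cells of a type and less RNA per cell cannot be told apart.

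The 2 replicate numbers differed in RNA quality. The signal ratio between the 3' and 5' ends of the actin, GAPDH and ubiquitin control transcripts, as a geometric mean, was 1.13 and 3.08 on the WT arrays and 1.50 and 5.22 on the fit arrays, against 1.07 to 1.53 on the 4 iron-sufficient arrays. Arrays of equal number but different genotype were more alike (Pearson's r across probe sets 0.986 for replicate 1 and 0.979 for replicate 2) than the replicates of WT (0.977) or of fit (0.963). The replicates lay at least a factor of 2 apart in 828 probe sets in WT and in 2156 in fit. Differences between the genotypes are therefore also given within each replicate number, as 1 array minus 1 array, with no test. The control ratio still differed between the genotypes within a number, most in replicate 2 (3.08 in WT and 5.22 in fit). Its part in the within-number differences was not tested. Across all probe sets these within-number differences had a standard deviation of 0.37 for replicate 1 and 0.44 for replicate 2, and correlated at r = 0.37. Probe sets of 1 array are not independent.

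The fit roots differed from WT in 62 called probe sets (0.273%), 45 lower in fit (0.198%) and 17 higher (0.0747%), while 1168 had an unadjusted p under 0.05. The lower ones had a median difference of -2.25 and the higher ones of 2.39, against 0.03 over all probe sets. Each of the 62 had groups that did not overlap (24.6% of all probe sets), the same sign within both replicate numbers (54.5% of all) and a difference of at least 1 in both. As the calls were made on the same arrays, these traits give them no independent support. A difference of at least 1 in both numbers was also found in a further 120 probe sets that were not called, 88 lower and 32 higher. In all, 182 probe sets (0.8%) had one, 133 (0.585%) lower in fit and 49 (0.215%) higher, while 29 (0.127%) were lower and 10 (0.044%) higher by at least 2 in both. Of the 62, 33 named 1 gene and 29 were unnamed. Fitting only the 4 iron-deficient arrays, with fewer residual degrees of freedom, called 10, of which 8 were lower and 2 higher. The number called also changed with any 1 array left out, iron-sufficient ones included. Such a fit leaves a lone array in its group and fewer residual degrees of freedom, so the change cannot be laid to that array alone. Leaving out either iron-sufficient array of a genotype gave the same test. The iron-sufficient arrays enter only through the shared spread. Their replicates were more alike (Pearson's r 0.990 in WT and 0.991 in fit) than those of the groups compared. The shared spread can therefore be too small for these groups.

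**Figure D1:**
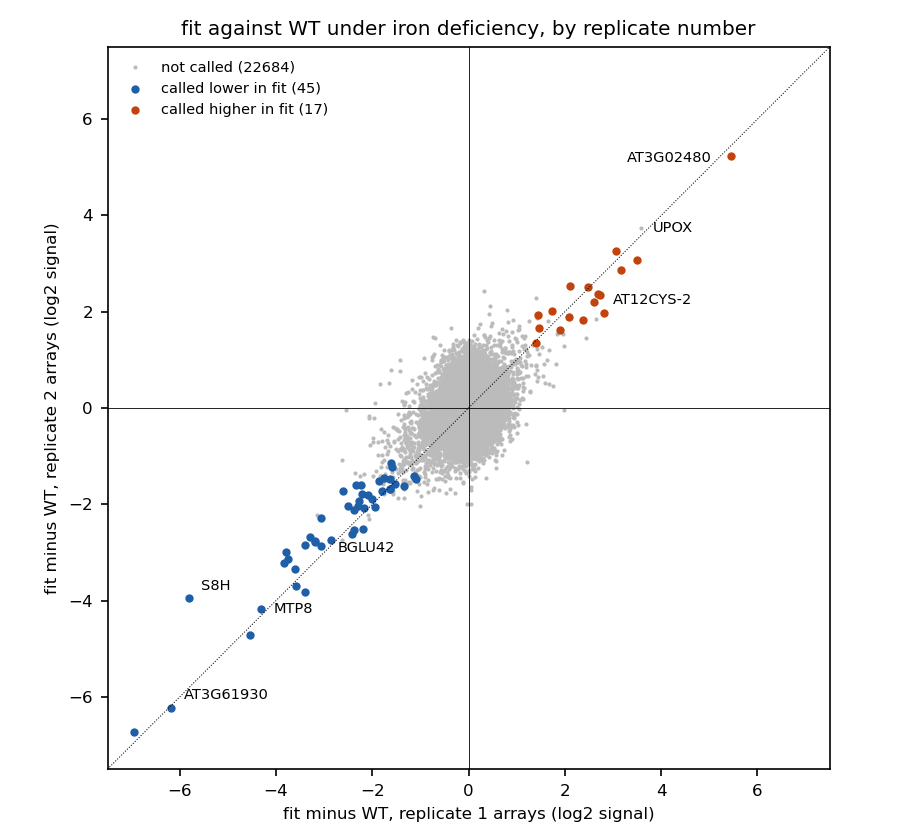
Difference in log2 signal between fit and WT under iron deficiency within replicate 1 (horizontal axis) and within replicate 2 (vertical axis), 1 point per probe set, with the dotted line marking equal differences. The 45 probe sets called lower (blue) and the 17 called higher (red) follow the line at varying distance. S8H, at -5.81 and -3.95, lies off it. UPOX lies near the line, at 3.57 and 3.74, although it was not called.

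Genes of coumarin synthesis and release, 3 of the 5 measured on their list, were called lower in fit, against 0.198% of all probe sets. S8H (AT3G12900), the hydroxylase that turns scopoletin into fraxetin, had log2 signals of 11.18 and 10.71 in WT and of 5.37 and 6.76 in fit. F6'H1 (AT3G13610), which makes the feruloyl-CoA derivative from which coumarins arise, had 13.21 and 12.70 in WT and 10.94 and 10.77 in fit. BGLU42, a beta-glucosidase that frees coumarins from their sugars, had 11.34 and 10.86 in WT and 8.28 and 7.99 in fit. No fit array reached a WT array for any of these genes. The difference was -4.88 for S8H (SE 0.44, limma adjusted p = 0.00518), -2.96 for BGLU42 (SE 0.23, limma adjusted p = 0.00242) and -2.10 for F6'H1 (SE 0.23, limma adjusted p = 0.0135). The replicate numbers gave like values for BGLU42 (-3.06 and -2.87) and F6'H1 (-2.27 and -1.94) but not for S8H, at -5.81 and -3.95.

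The other measured genes of the iron uptake and coumarin list lay lower in fit too without being called. COSY (AT1G28680), the enzyme that closes the coumarin ring, had 10.41 and 10.73 in WT and 9.83 and 9.45 in fit, a difference of -0.93 (SE 0.21, limma adjusted p = 0.286). F6'H2, a close relative of F6'H1, had 8.01 and 8.07 in WT and 6.70 and 7.35 in fit, a difference of -1.01 (SE 0.24, limma adjusted p = 0.332). Of the 17 genes on the list 5 were measured and 3 were called lower, against 0.198% of all probe sets. In all 5 the fit arrays lay below the WT arrays, as in 11.1% of all probe sets. The median of the 5 was -2.10. The list rests on general knowledge that includes work on fit and was chosen with earlier results of these data known. Its count and direction have no independent support here.

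UGT72E1, which joins glucose to the precursors of lignin, had 12.22 and 11.35 in WT and 10.15 and 9.05 in fit. Its replicates lay far apart in both genotypes, and it was not called (-2.19, SE 0.41, limma adjusted p = 0.143), yet the within-number differences were -2.07 and -2.30.

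Of 4 measured transporters of zinc and manganese, 2 were called lower in fit, against 0.198% of all probe sets. MTP8 (AT3G58060), which loads manganese and iron into the vacuole, had 9.59 and 9.14 in WT and 5.28 and 4.97 in fit, a difference of -4.24 (SE 0.22, limma adjusted p = 0.000312). ZIP9, a member of the ZIP family of zinc and iron importers, had 7.68 and 7.51 in WT and 5.06 and 5.79 in fit (-2.17, SE 0.26, limma adjusted p = 0.0229). In fit the signals of both stayed near those of the iron-sufficient arrays, where MTP8 averaged 5.13 in WT and 5.12 in fit and ZIP9 6.06 and 5.49. ZIP6 (-0.01, SE 0.25) and MTP11, a manganese carrier of the secretory pathway (-0.04, SE 0.29), were the other measured members of the list and were not called. As the list was chosen with earlier results of these data known, its count has no independent support. Among transporters outside that list, AT5G38820, of the amino acid transporter family, had 10.59 and 10.13 in WT and 7.19 and 7.28 in fit (-3.12, SE 0.23, limma adjusted p = 0.00168). AT2G16660, of the major facilitator superfamily, had 10.58 and 10.64 in WT and 8.41 and 8.55 in fit (-2.13, SE 0.17, limma adjusted p = 0.00255). AT4G34950, of the same superfamily, was not called (-1.50, SE 0.25, limma adjusted p = 0.0891).

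Several of the largest differences belonged to genes with low signal in every group but iron-deficient WT. AT3G61930, a gene of unknown function, had 10.88 and 11.11 in WT and 4.70 and 4.89 in fit, and was 73.5-fold lower in fit (-6.20, SE 0.20, limma adjusted p = 2.25e-05). CYP71B5, a cytochrome P450, had 8.61 and 8.81 in WT and 4.06 and 4.098 in fit (-4.63, SE 0.17, limma adjusted p = 3.45e-05). FOLB1, a dihydroneopterin aldolase of folate synthesis, had 8.17 and 7.99 in WT and 4.76 and 4.16 in fit (-3.62, SE 0.23, limma adjusted p = 0.00100). On the iron-sufficient arrays the means of these genes were 5.18 and 5.43 for AT3G61930, 4.01 and 4.05 for CYP71B5 and 4.03 and 4.15 for FOLB1, in WT and fit. Under deficiency fit had the low signal of plants with iron. Of all 45 probe sets called lower, 34 had a mean in iron-deficient fit within 0.5 of that in iron-sufficient fit. Over all probe sets this share was larger, at 84.6%. The unnamed probe set 253502_at had the lowest difference of all, with 10.49 and 10.37 in WT and 3.53 and 3.64 in fit. The unnamed 262412_at had 10.17 and 9.42 in WT and 6.58 and 5.72 in fit.

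**Figure D2:**
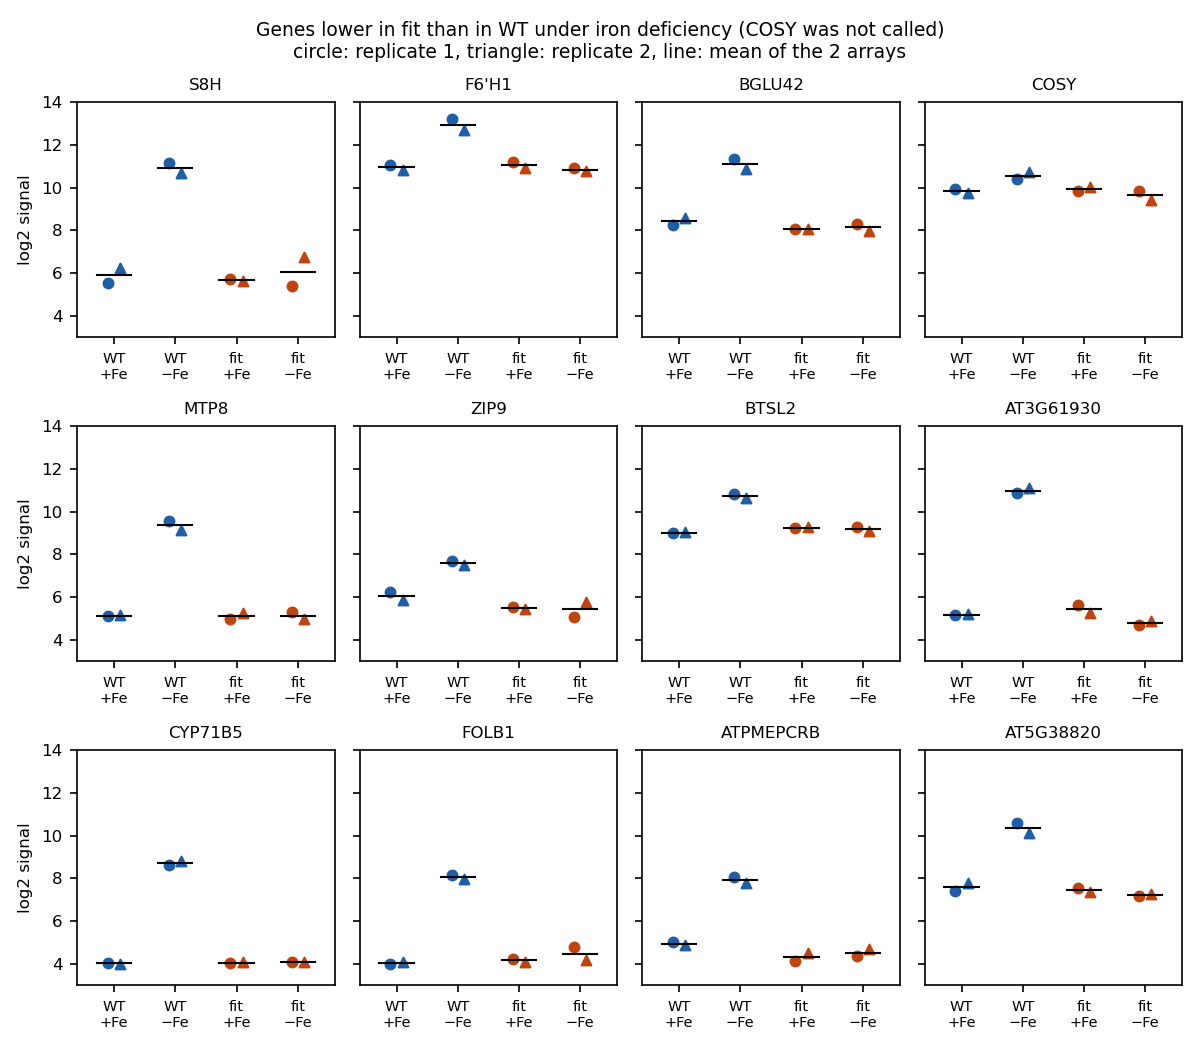
Log2 signal of 12 genes on each of the 8 arrays by genotype and iron supply, with replicate 1 as circles, replicate 2 as triangles and the mean of the 2 arrays as a line. In each panel the iron-deficient WT arrays stand above the other 6, COSY being the one gene shown that was not called.

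Among regulators of the iron response 1 was called. BTSL2 (AT1G18910), a hemerythrin-domain ubiquitin ligase that holds the response back, had 10.82 and 10.65 in WT and 9.29 and 9.08 in fit (-1.55, SE 0.17, limma adjusted p = 0.0155). Its near relative BTSL1 (AT1G74770) had 11.49 and 11.18 in WT and 11.50 and 10.71 in fit, with overlapping groups (-0.23, SE 0.28), a value that turned to 0.16 without fit replicate 2. BHLH101, the measured Ib factor, had 9.97 and 10.51 in WT and 11.59 and 11.51 in fit, so that both fit arrays lay above both WT arrays. The difference of 1.31 (SE 0.22) was not called (limma adjusted p = 0.0891). IMA1 (AT1G47400), an IRON MAN peptide gene, had 9.42 and 9.83 in WT and 10.53 and 11.33 in fit, again without overlap and without a call (1.30, SE 0.33, limma adjusted p = 0.370). PYE, a bHLH repressor of iron genes, had 7.92 and 7.90 in WT and 8.39 and 8.29 in fit (0.43, SE 0.17, limma adjusted p = 0.898).

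The other regulators, the subgroup IVc factors ILR3, bHLH34, bHLH104 and bHLH115 and the related bHLH121, had differences between -0.35 for ILR3 and 0.18 for bHLH104. Of the 18 regulators listed 10 were measured, 1 was called lower and 0 were called higher by limma. Over all probe sets 0.198% were called lower. The fit arrays lay above the WT arrays for 3 (13.5% of all probe sets) and below for 2 (11.1% of all), and the median difference was 0.13. The list was chosen with earlier results of these data known.

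Further genes called lower in fit were on none of the lists. AT4G09110, a RING finger protein, had 8.23 and 8.10 in WT and 4.43 and 5.10 in fit (-3.40, SE 0.26, limma adjusted p = 0.00229). AT2G19410 and AT3G61410, kinases of the U-box type, differed by -1.95 (SE 0.23) and -1.60 (SE 0.18), and AT1G51860, a receptor kinase with leucine-rich repeats, by -2.25 (SE 0.30, limma adjusted p = 0.0378). ATPMEPCRB, a pectin methylesterase, had 8.09 and 7.80 in WT and 4.34 and 4.68 in fit (-3.43, SE 0.22, limma adjusted p = 0.00100). AT4G10510, a subtilisin-like protease, differed by -1.69 (SE 0.18) and APS3, an ATP sulfurylase of sulfate assimilation, by -1.66 (SE 0.23). AT5G40590, a cysteine and histidine rich protein, differed by -1.97 (SE 0.28) and stood just under the threshold (limma adjusted p = 0.0497). AT1G73120, of unknown function, had 10.83 and 10.65 in WT and 8.44 and 8.11 in fit (-2.46, SE 0.20, limma adjusted p = 0.00255), and its difference with sufficient iron was -1.57.

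Genes known from water shortage and abscisic acid were among the highest in fit. AT3G02480, of the late embryogenesis abundant family, had 6.21 and 6.16 in WT and 11.66 and 11.40 in fit, a 40.6-fold difference (5.34, SE 0.24, limma adjusted p = 0.000123). AT5G01670, an aldo-keto reductase, had 5.81 and 5.75 in WT and 8.98 and 8.63 in fit (3.02, SE 0.25, limma adjusted p = 0.00258). PUB19, a U-box ubiquitin ligase of abscisic acid signalling, had 6.25 and 6.36 in WT and 8.93 and 8.74 in fit (2.53, SE 0.18, limma adjusted p = 0.00160). The groups were far apart for each of these, and the 2 replicate numbers gave like differences. The other 4 measured genes of the list did not follow: the dehydrins LTI30 and COR47 had -0.33 and -0.04, COR15A, a chloroplast protein of cold and drought, 0.10, and LEA4-5 -0.01, with overlapping groups. The median of the 7 measured of 35 listed was 0.10, and 3 were called higher, against 0.0747% of all probe sets. The 3 called genes had been put on that list with their earlier results known, so their count is no evidence about the list.

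Of 7 measured genes of the mitochondrial stress response, 2 were called higher in fit, against 0.0747% of all probe sets. UPOX (AT2G21640), a mitochondrial protein whose transcript rises with oxidative stress, had 5.08 and 6.61 in WT and 8.66 and 10.35 in fit. Its replicates lay 1.53 apart in WT and 1.69 in fit, and it was not called (3.66, SE 0.60, limma adjusted p = 0.0864), yet the within-number differences of 3.57 and 3.74 were nearly equal. AT12CYS-2 (AT5G09570), a small mitochondrial protein rich in cysteine, had 7.62 and 8.29 in WT and 10.36 and 10.63 in fit (2.54, SE 0.28, limma adjusted p = 0.0153). NDB4, an alternative NAD(P)H dehydrogenase on the outer face of the inner membrane, had 5.46 and 6.10 in WT and 7.94 and 8.62 in fit (2.50, SE 0.30, limma adjusted p = 0.0197). Its relatives differed less: NDB3 had 5.79 and 5.75 in WT and 6.68 and 6.66 in fit (0.90, SE 0.22, limma adjusted p = 0.345), and NDB2 had 0.21 (SE 0.19). HSP23.5, a mitochondrial small heat shock protein, had 0.54 (SE 0.28) and AT12CYS-1 -0.06 (SE 0.17). Of the 20 genes listed, 6 of the 7 measured had fit arrays above the WT arrays, as had 13.5% of all probe sets, with a median of 0.90. The list was chosen with earlier results of these arrays known.

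**Figure D3:**
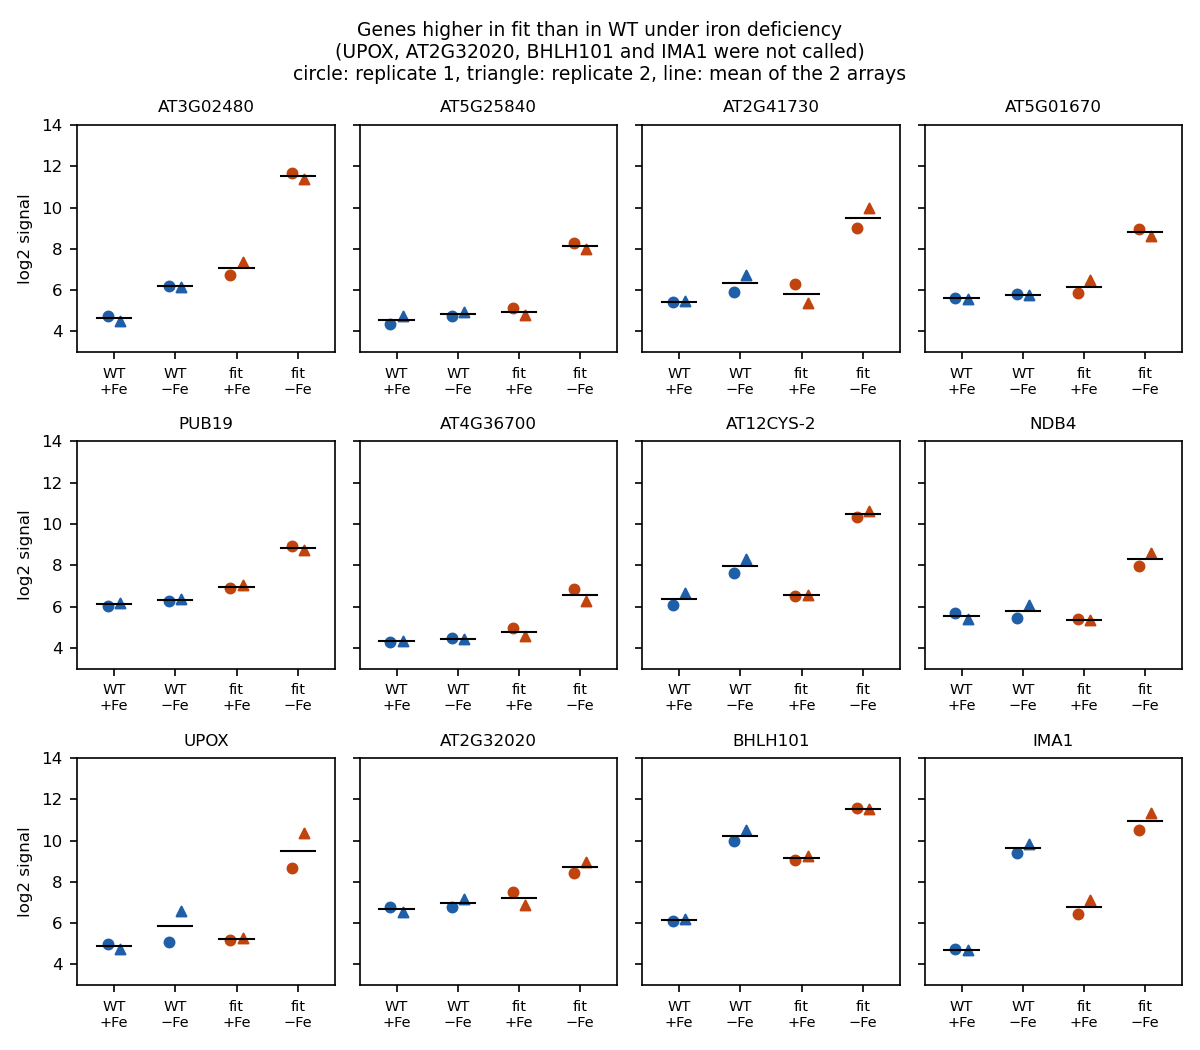
Log2 signal of 12 genes on each of the 8 arrays, drawn as for the genes lower in fit. Iron-deficient fit stands above all other groups in each panel, while UPOX, AT2G32020, BHLH101 and IMA1 were not called.

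Further genes called higher in fit have less known roles. AT5G25840 had 4.77 and 4.94 in WT and 8.27 and 8.01 in fit (3.29, SE 0.23, limma adjusted p = 0.00137). AT2G41730 had 5.93 and 6.75 in WT and 8.99 and 10.00 in fit (3.15, SE 0.43, limma adjusted p = 0.0406), read by a probe set of the type that can bind several transcripts. AT1G12030 differed by 2.39 (SE 0.26), AT1G10875 by 2.32 (SE 0.30), AT4G36700, a cupin-like protein, by 2.101 (SE 0.24), and the kinase AT3G01490 by 1.56 (SE 0.20). The 2 unnamed probe sets with the highest called differences were 261065_at at 2.41 (SE 0.23) and 247793_at at 1.99 (SE 0.27).

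Among genes not called, 20 were picked for the size of the smaller of their within-number differences. The 10 lower ones, beside UGT72E1 and AT4G34950, included AT4G19370, with 9.87 and 8.90 in WT and 7.24 and 6.15 in fit (within-number differences -2.63 and -2.75), and AT3G54580, an extensin of the cell wall, with 11.50 and 10.52 in WT and 9.34 and 9.14 in fit (-2.17 and -1.37). The RING finger genes AT2G20030 (-1.98 and -1.41) and AT5G06490 (-1.51 and -1.60), the glycosyl hydrolase AT3G47040 (-1.83 and -1.42), the aspartyl protease AT3G51350 (-1.82 and -1.42) and the kinase AT5G35580 (-1.78 and -1.58) were lower in both pairs. AT3G07720, a kelch-repeat protein, had 13.52 and 13.17 in WT and 11.94 and 11.38 in fit (-1.58 and -1.78). Higher in fit beside UPOX were NET3A, an actin-binding protein, with 7.13 and 6.59 in WT and 9.58 and 8.05 in fit (2.45 and 1.46), AT2G32020, an acetyltransferase (1.65 and 1.80), and SWEET11, a sucrose exporter, with 8.16 and 7.33 in WT and 10.00 and 8.86 in fit (1.84 and 1.53). MEF8S, an RNA editing factor, had 1.67 and 1.21, the acyltransferase AT5G07080 1.16 and 1.50, and AT1G66020, a terpene synthase relative, 1.42 and 1.22. The remaining 3, AT4G36580, AT4G39235 and AT1G02700, lay between 1.12 and 1.30 within each number. As these genes were ranked on the values given, the values are a description.

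No measured root hair gene was called by limma. The root hair expansins EXPA7 and EXPA18, which loosen the wall of the growing hair, had 9.21 and 8.77 against 7.76 and 7.62 and 8.96 and 8.14 against 7.70 and 7.33, in WT and fit. PRX35 (AT3G49960), a class III peroxidase, had -0.98 (SE 0.34) and XTH26, a xyloglucan hydrolase, -0.75 (SE 0.24), while GH9C1, a cellulase, had 0.47 (SE 0.26). Of 25 genes listed 5 were measured, with limma adjusted p of 0.365 or more. The fit arrays lay below the WT arrays in 4 of them (11.1% of all probe sets) and above in GH9C1 (13.5% of all), and the median was -0.98. This list too was chosen with earlier results of these data known. Among all 18 measured expansins the median was -0.19 with 8 below and 2 above, beside the same shares of all probe sets, and among 9 xyloglucan hydrolases it was -0.09, with 0 called in either family.

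The remaining lists held few measured members and no call. The iron-sulfur and haem enzymes had a median of -0.31 over 5 measured genes, from -0.77 for HEMA2, a glutamyl-tRNA reductase of haem synthesis, to 0.06 for SIR, the sulfite reductase. The low oxygen list had -0.14 over 10, between -0.41 and 0.38, the reactive oxygen enzymes -0.05 over 4, with the ascorbate peroxidase SAPX at -0.67 (SE 0.18), and the heat shock proteins 0.16 over 4. Markers of other cells and tissues were hardly represented among probe sets naming 1 gene. They were 1 gene of the endodermis (SGN1, 0.23), 1 of dividing cells (KIN12B, 0.44) and 3 of 15 shoot photosynthesis markers. The mean log2 signal of those 3 was 6.82 and 7.19 in WT and 6.99 and 7.20 in fit. No listed gene of xylem or phloem, iron translocation, phosphate starvation or jasmonate was named alone by a probe set, so none could be read. The iron storage list had a median of -0.09 over 2 of 13 genes, and CCS, the copper chaperone for superoxide dismutase, had -0.24 and SDI2, a gene of the sulfur starvation response, 0.46. The 3 reference genes had a median of -0.06. The 69 probe sets naming 1 gene of the plastid genome had a median of 0.33, with 0.24 within replicate 1 and 0.53 within replicate 2, and 0 were called. The part of the control ratio in these differences was not tested.

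**Figure D4:**
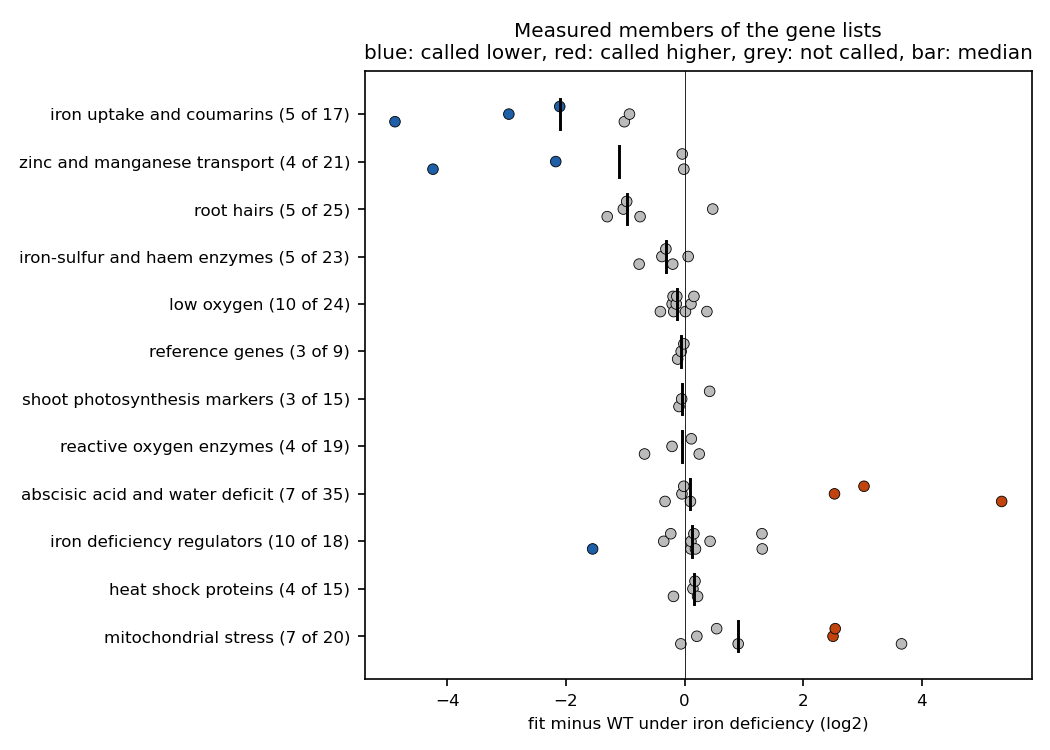
Difference in log2 signal between fit and WT under iron deficiency for each measured member of the lists with at least 3 of them, with the median as a bar and the number measured of those listed in brackets. Called members stand in the lists of iron uptake and coumarins, zinc and manganese transport, regulators, abscisic acid and mitochondrial stress, and the other 7 lists lie between -1.30 and 0.47.

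By family, called members were single genes, where 0.198% of all probe sets were called lower and 0.0747% higher. CYP71B5 was the 1 called member of 23 measured cytochrome P450 genes, which had a median of 0.09 and CYP71B34 at the other end with 1.08 (SE 0.30). BGLU42 was the 1 called of 20 beta-glucosidases (median 0.08), and PUB19 the 1 called of 9 U-box ligases (median 0.12), of which PUB23 had the lowest difference, -1.39 (SE 0.47). None of 47 UDP-glycosyltransferases, 14 glutathione transferases, 14 bZIP factors or 6 WRKY factors was called by limma. GSTU25, a glutathione transferase, had 9.68 and 9.69 in WT and 10.70 and 11.05 in fit (1.19, SE 0.20, limma adjusted p = 0.0891), and GSTL3 had -1.28 (SE 0.25).

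Whether the effect of the genotype depended on iron was tested as the difference between the effect of fit under deficiency and its effect with sufficient iron, measured on 4 other arrays. With sufficient iron, 2 probe sets (0.00879%) were called between the genotypes, that of BHLH101 among them (limma adjusted p = 0.0115). The difference was called for 17 probe sets (0.0747%), 15 lower (0.0659%) and 2 higher (0.00879%), and 740 had an unadjusted p under 0.05. Of the 17, 15 were also among the 62, and 10 named 1 gene. AT3G61930 had -6.20 under deficiency and 0.25 with iron (difference -6.45, SE 0.29, limma adjusted p = 0.000241), and CYP71B5, MTP8 and FOLB1 had between -0.01 and 0.12 with iron. AT3G02480 lay higher in fit at both supplies, by 5.34 and 2.41, though with iron it was not called (limma adjusted p = 0.0508). Its effects differed by 2.93 (SE 0.34, limma adjusted p = 0.0393). AT3G07720 lay lower in fit without iron (-1.68) and higher with iron (1.90), but neither effect was called on its own (limma adjusted p = 0.0732 and 0.230).

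For the coumarin genes the difference of the effects was not called: S8H had -4.68 (limma adjusted p = 0.0815), BGLU42 -2.59 (limma adjusted p = 0.0631) and F6'H1 -2.21 (limma adjusted p = 0.121). Over the 45 probe sets called lower the median effect was -2.25 without iron and -0.01 with iron. Of them, 37 lay within 0.5 of no effect with iron, a smaller share than the 95.5% of all probe sets. Over the 17 called higher the medians were 2.39 and 0.39, with 13 above 0 with iron, against 49.6% of all probe sets. BHLH101 and IMA1 had differences of 2.99 and 2.08 with iron and of 1.31 and 1.30 without, and these effects were not called different (limma adjusted p = 0.243 and 1.000). The 17 calls became 5 and 6 without WT iron-deficient replicate 1 or 2, 11 without fit iron-deficient replicate 1, 26 without fit iron-deficient replicate 2 and 3 without any 1 iron-sufficient array.

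**Figure D5:**
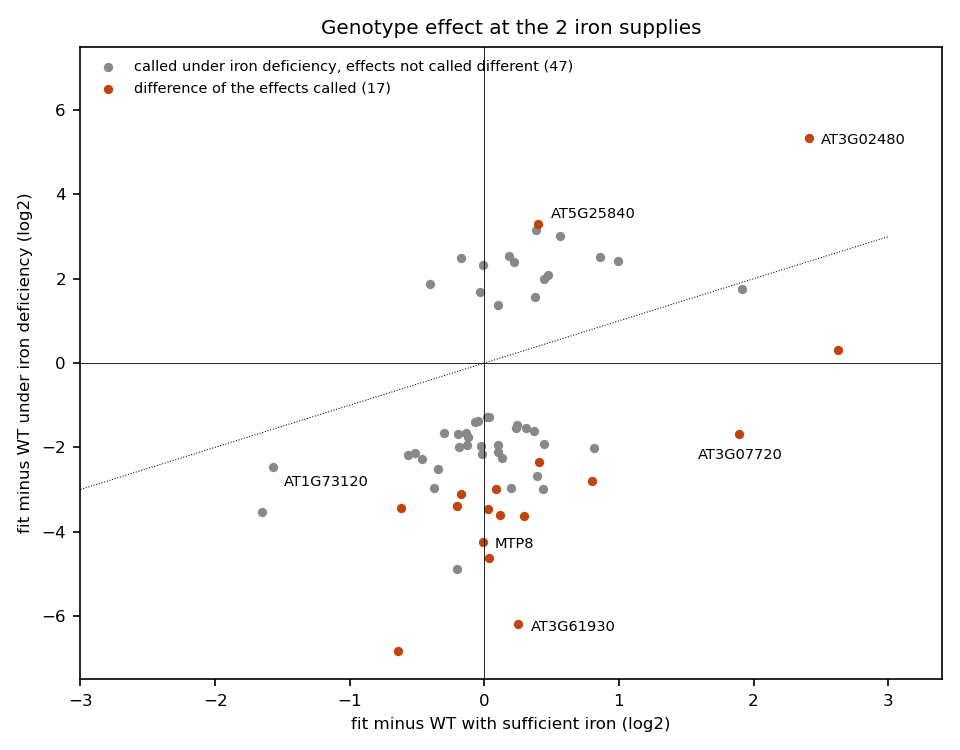
Difference between fit and WT with sufficient iron (horizontal axis) and under iron deficiency (vertical axis), log2, for the probe sets called under deficiency or for the difference of the effects, the dotted line marking equal effects. The 17 probe sets whose effects were called different are red, and most points lie near 0 on the horizontal axis.

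Over 20 other ways of fitting the data, 7 of the 31 named called genes kept their call in each: AT3G61930, CYP71B5, MTP8, FOLB1, ATPMEPCRB, AT5G25840 and AT3G02480. None of the 31 changed sign. As the groups of each did not overlap, leaving arrays out could not change it. Leaving out either iron-sufficient array of a genotype gave the same test of this comparison, so these fits enter the tallies in pairs. S8H lost the call in 2 of the 20, F6'H1 and AT12CYS-2 in 7 each, NDB4 in 8, ZIP9 in 9, BTSL2 and AT1G51860 in 11 each and AT2G41730 in 13. With 1 array left out, between 14 (without WT iron-deficient replicate 1) and 27 (without fit iron-deficient replicate 1) of the 31 were still called, and with replicate 1 or replicate 2 alone of the iron-deficient arrays 23 and 17 were.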

How the data were processed

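Total RNA of roots was labelled with biotin and hybridised to Affymetrix Arabidopsis arrays, per the labels' protocols. Each deposited value is the signal intensity of 1 probe set on 1 array, made with RMA per the submitters' processing notes (version not given in the sources used here). They lay between 7.13 and 21060 on the linear scale, and log2 of the deposited intensity was analysed. Of 22810 probe sets, 64 controls were left out. Gene names were taken from the platform's annotation, updated by RefSeq's TAIR10.1 genes: 13513 probe sets named 1 gene, 503 several and 8730 were unnamed here. No coordinates or sequences are given.

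Group means of all 8 arrays were fitted with limma 3.58.1 in R 4.3.3 (lmFit, eBayes, 4 residual and 3.82 prior degrees of freedom), and the code was tested on simulated data. The number of arrays, 2 per group, limits the precision.

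Members and gene lists were chosen with earlier results of these data known. The 21 lists held 372 genes, of which 73 were named alone by a probe set and so measured, by the brightest of their locus. Families follow RefSeq symbols, since a planned search of gene descriptions matched unrelated genes. Named are called 1-gene probe sets without overlap between groups (at most the 20 highest and lowest), the 10 highest and 10 lowest not called by their smaller within-number difference, list and family members, the 2 highest and lowest unnamed called probe sets, and, added after their values were seen, those with a called difference of effects. Alternatives were other samples, covariates, normalisations, filters, variance priors, weights and scales.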

Additional observations from a re-analysis of the deposited data

Results flagged for a closer look

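The effect of fit differed between the iron supplies, by the test of the difference itself, in 17 probe sets. Given as the effect under deficiency minus that with sufficient iron, on the log2 scale, the 15 lower values were -6.45 for AT3G61930, -6.20 for the unnamed 253502_at, -4.67 for CYP71B5, -4.23 for MTP8, -3.94 for the unnamed 262412_at, -3.74 for FOLB1, -3.59 for the unnamed 254534_at, -3.57 for AT3G07720, -3.50 for the unnamed 250983_at and -3.19 for AT4G09110. The others of these were -3.06 for the unnamed 252145_at, -2.95 for AT5G38820, -2.81 for ATPMEPCRB, -2.75 for the unnamed 253658_at and -2.32 for the unnamed 264751_at. The 2 higher values were 2.89 for AT5G25840 and 2.93 for AT3G02480. AT3G07720 and 264751_at were not called under deficiency. AT3G07720 had mean log2 signals of 9.65 in WT and 11.55 in fit with iron and of 13.34 and 11.66 without it, and 264751_at had 6.73 and 9.36 with iron and 10.67 and 10.98 without it.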

How the results depend on the processing

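The 62 calls between fit and WT became 10 with only the 4 iron-deficient arrays, 30 with array weights and 32 with only probe sets naming 1 gene, where fewer were tested. They became 134 with a replicate block, which held all 62, and 188 when the control ratio entered as a covariate, and lay between 21 and 75 when arrays were left out, with 45 from replicate 1 alone and 31 from replicate 2 alone. Lone arrays are there assumed to vary like the other groups. The 17 calls for the difference of the effects became 40 with a replicate block, 93 with the covariate, 11 with log2 of the intensity plus 16 and 10 with probe sets naming 1 gene, and lay between 3 and 26 without arrays. The causes were not tested. The numbers are not stated to pair the plants, though the deviations of equal numbers from their group means went together (r = 0.66 in WT and fit without iron). Of the 20 genes not called but of the same sign in both numbers, 13 were called with the block and 18 in at least 1 alternative. UPOX (limma adjusted p = 0.0176) and UGT72E1 (0.00922) were called with the block. As the 20 were picked on the within-number differences that the block fit tests, these counts give no independent support. BHLH101 was called with the block as well (limma adjusted p = 0.0334). BTSL1 turned from -0.23 to 0.011 with replicate 1 alone, and ran from -0.63 to 0.16 with 1 array left out, the latter without fit replicate 2. No other named gene followed through the alternatives changed sign. The groups of these others did not overlap, so leaving arrays out could not change theirs. The other planned settings left both counts within 1.5 times, save where given. RMA compresses dim signals, which limits differences near the floor.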
